A study of Mus musculus with 4 samples.

Results

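The 5 genes described here, Cd80, Cd86, Cd40, Icosl and Cd70, encode surface molecules with which antigen-presenting cells costimulate lymphocytes. They were chosen by name out of the 32285 genes in the matrices. Their raw unique molecular identifiers (UMIs, one per captured transcript) were summed in dendritic cells, B cells, monocytes, macrophages, neutrophils and leukaemia cells. Each cell was placed in one of these 6 classes by a gate on marker genes, and none of the 5 genes was a gating marker.

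The cells came from bone marrow (BM) and spleen of wild-type C57BL/6J mice, 6 to 8 weeks old, into which MA9 leukaemia cells had been transplanted. MA9 stands for blood cell precursors of the mouse that the oncogene MLL-AF9 had turned leukaemic. In all groups the transplanted cells carried a doxycycline-inducible hairpin, directed at Prmt9 in shPrmt9 and a control in Ctrl, and all mice drank doxycycline for 7 days. The dendritic, B and T cells are read here as cells of the host, which carry no hairpin, and their origin was not tested. There were 4 groups, BM-Ctrl and BM-shPrmt9 from marrow, Spleen-Ctrl and Spleen-shPrmt9 from spleen, each with 1 droplet library that counts the 3′ ends of transcripts. Where 4 values are listed without names, they follow this order. Without replicates no test between groups was possible. All intervals are exact 95% intervals that cover counting error only, and arm, animal and library preparation cannot be told apart.

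A T cell needs a second signal beside the peptide presented to its receptor. Cd80 and Cd86 deliver it through Cd28 and are also bound by the inhibitory receptor Ctla4, and Icosl binds Icos. Cd40 works in the other direction, since it receives Cd40lg from helper T cells and feeds the NF-kB pathway of the presenting cell, and Cd70, a TNF family ligand, engages Cd27. Dendritic cells are known to raise these molecules when they mature and move toward lymph nodes.

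Filtering left 8901, 10175, 8306 and 7545 cells, of which 7204, 7985, 5756 and 1870 fell into the 6 classes. Median depth ran from 6305 to 10383 UMIs per cell, and 160 of 38663 barcodes occurred in more than 1 library. Prmt9 was lower in the leukaemia cells of the shPrmt9 library in both tissues. In bone marrow it stood at 11.1 CPM (UMIs per 1000000 UMIs of the class) in Ctrl and 6.31 in shPrmt9, a ratio of 0.568 (0.514–0.627). In spleen it stood at 15.4 and 6.43, a ratio of 0.418 (0.245–0.723). Sex-linked transcripts of the non-leukaemia cells split the libraries by tissue. The 4 Y-linked genes summed to 0 and 1 UMIs in the marrow libraries and to 15529 and 14454 in the spleen libraries, while Xist stood at 17.9, 318, 0.152 and 0.0763 CPM. Marrow and spleen of an arm therefore cannot be read as tissues of a single animal, and the marrow libraries differed in Xist as well.

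Cd80 (chromosome 16, 38455561 to 38496335, plus strand) and Cd86 (chromosome 16, 36603869 to 36666081, minus strand) are neighbours in the B7 family. Cd40, a TNF receptor family member (chromosome 2, 165055627 to 165072948, plus strand), Icosl (chromosome 10, 78069302 to 78083913, plus strand) and Cd70 (chromosome 17, 57145997 to 57149777, minus strand) each lie elsewhere. The positions are from GENCODE on GRCm38, where no other annotated gene overlaps any of the 5.

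The classes differed in which member they carried. Cd86 was present in macrophages, monocytes, B cells and dendritic cells of all libraries, and was at 1.01 to 5.69 CPM in leukaemia cells. In BM-Ctrl macrophages were highest in Cd86 at 152 CPM, followed by monocytes at 80.2, B cells at 56.2, dendritic cells at 18.7, neutrophils at 5.74 and leukaemia cells at 1.01, and no neighbours in this order had overlapping intervals. In BM-shPrmt9 the order was the same except that dendritic cells, at 204 CPM, now stood first, with an interval that overlapped that of macrophages at 132.

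Cd80 had another order. In BM-Ctrl its highest class was neutrophils at 18.2 CPM, which overlapped monocytes at 14.5 and dendritic cells at 12.9. In the other 3 libraries dendritic cells stood first, at 110.5, 231.9 and 216.8 CPM, and did not overlap the next class. Leukaemia cells, at 4.67 CPM in BM-Ctrl and 5.03 in BM-shPrmt9, held 41.5% and 50.4% of all Cd80 UMIs there. Cd40 was highest in B cells of BM-Ctrl, at 51.8 CPM, and in dendritic cells of the other libraries, although in Spleen-Ctrl and Spleen-shPrmt9 the interval of dendritic cells overlapped that of the next class.

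Icosl was spread over several classes. In BM-Ctrl it stood at 32.8 CPM in B cells and 28.6 in neutrophils, with overlapping intervals. Neutrophils held 40.7% of all Icosl UMIs in BM-Ctrl and 54.1% in BM-shPrmt9, and B cells held 90.8% in Spleen-Ctrl. Leukaemia cells held 24.8, 32.4, 0.279 and 14.3% of them in the 4 libraries, and dendritic cells 1.65, 3.46, 0.479 and 3.05%. Cd70 was rare, with 3, 94, 39 and 22 UMIs in the 4 libraries, and dendritic cells held 66.7, 57.4, 69.2 and 40.9% of them.

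Erythroid cells, which should carry none of these molecules, showed the level that free RNA can leave. Cd80 was at 0 to 0.310 CPM in them, Cd86 at 0.269 to 1.69, Cd40 at 0 to 1.72 and Icosl at 0.317 to 2.63. T cells held Cd86 at 6.18, 7.10, 9.70 and 18.9 CPM. Leukaemia cells held Cd86 at 1.01, 1.51, 1.18 (2 UMIs) and 5.69 CPM. In every library this was below the T cells and above the erythroid cells. Cd40 in leukaemia cells, at 0.125 to 0.591 CPM, lay within the erythroid range pooled over the libraries. In BM-Ctrl, however, erythroid cells held 0 Cd40 UMIs.

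**Figure D1:**
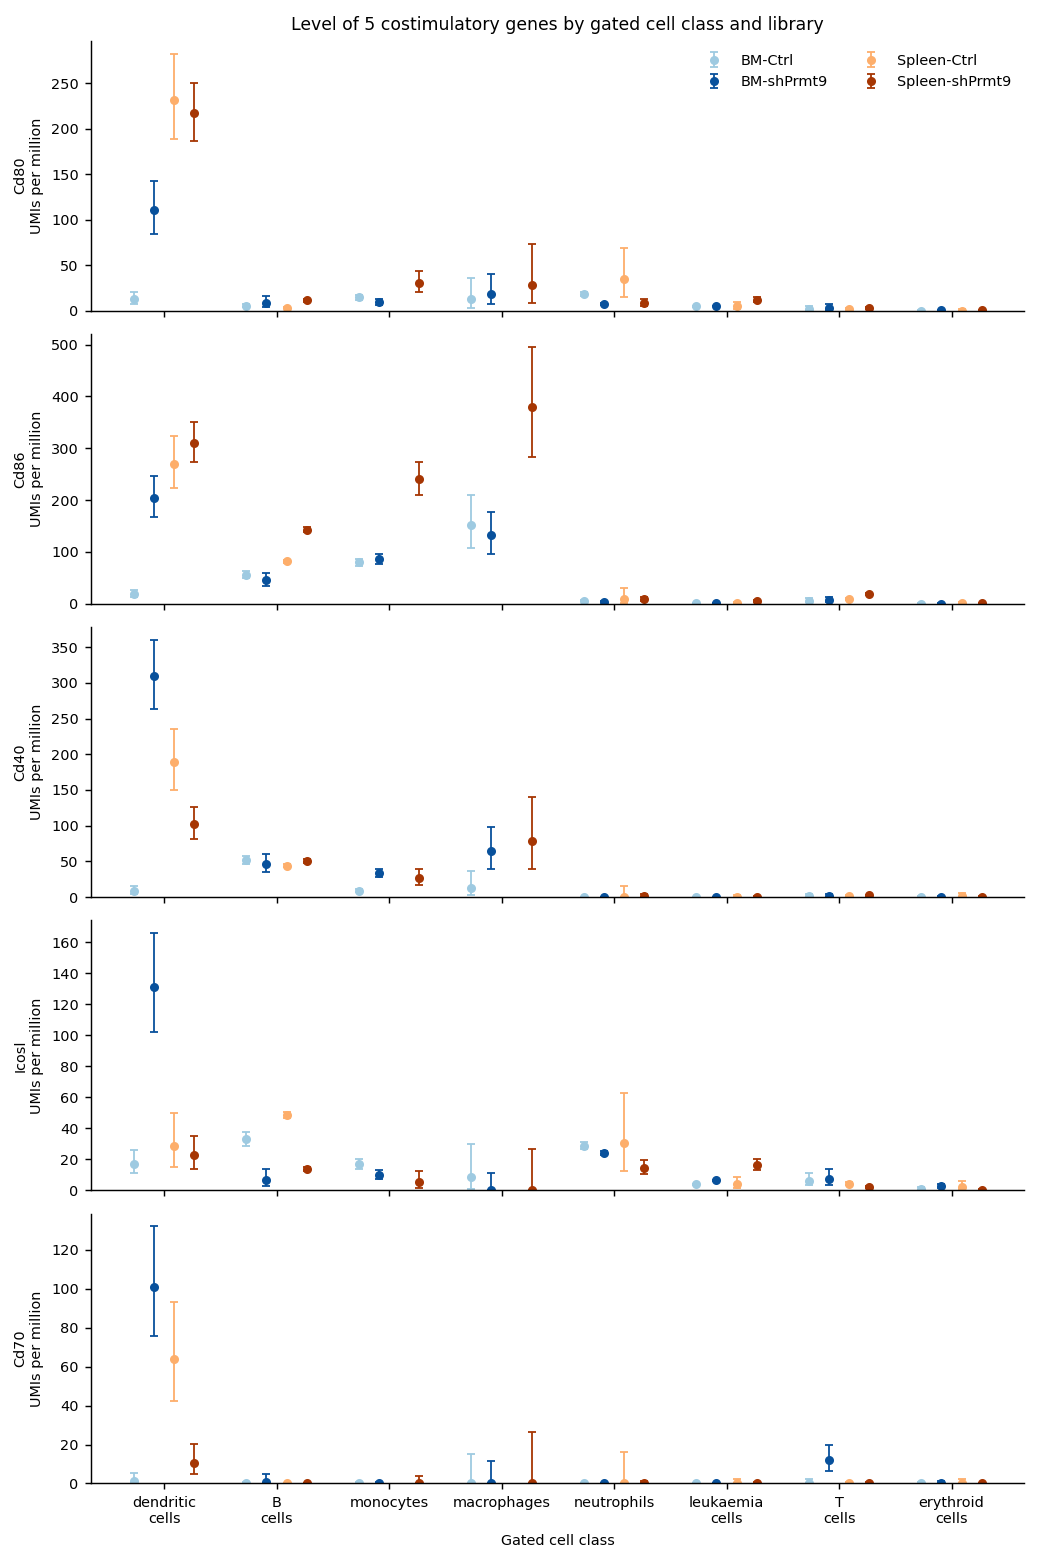
CPM (y axis, a scale for each gene) of the 5 genes in 8 gated classes (x axis), with 1 point per library and exact Poisson intervals. Dendritic cells of BM-Ctrl lie below those of the other 3 libraries for Cd80, Cd86 and Cd40, while for Icosl only BM-shPrmt9 stands above the rest, and the 5 monocytes and 2 macrophages of Spleen-Ctrl are not drawn.

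Dendritic cells were the class in which the libraries of bone marrow differed most widely in these genes. The gate found 130, 42, 26 and 48 cells, with 1392899, 533785, 422583 and 844277 UMIs in sum. A gene was called higher or lower when the shPrmt9 library was at least 2-fold above or below Ctrl, with at least 20 UMIs over both. In bone marrow, 5 of 5 members were higher, whereas 8.37% of the 7896 genes with enough UMIs were higher and 15.7% were lower. In spleen, 0 of 5 were higher and 1 was lower, where 12% of 6122 genes were higher and 6.03% lower. In bone marrow Cd80, Cd40 and Cd70 passed the minimum of 20 UMIs only through the library where they were higher, so the count of 5 gives no support by itself.

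Of the ligands for Cd28, Cd80 had 18 UMIs (12.9 CPM) in BM-Ctrl and 59 (110.5 CPM) in BM-shPrmt9, and in spleen 98 (231.9 CPM) in Ctrl and 183 (216.8 CPM) in shPrmt9. BM-Ctrl stood apart from the other 3 libraries. The ratio of shPrmt9 to Ctrl was 8.55 (4.97–15.4) in bone marrow and 0.935 (0.727–1.21) in spleen.

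Cd86 was likewise lowest in BM-Ctrl, with 26 UMIs (18.7 CPM), 109 (204 CPM), 114 (269.8 CPM) and 262 (310.3 CPM). Its marrow ratio was 10.9 (7.08–17.5) and its spleen ratio 1.15 (0.920–1.45). The share of dendritic cells with a Cd86 UMI was 13.1% (7.81–20.1), 54.8% (38.7–70.2), 80.8% (60.6–93.4) and 81.3% (67.4–91.1). When cells were thinned to 2000 UMIs, with 1, 0, 0 and 3 shallower cells left out, the shares were 2.33, 23.8, 42.3 and 48.9%. Erythroid cells, with median depths of 4790 to 12208 UMIs beside 9652 to 15505 in dendritic cells, held a Cd86 UMI in 0.161 to 1.93% of cells.

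Cd40, the receptor for T cell help, had 12 UMIs (8.62 CPM) in BM-Ctrl and 165 (309 CPM) in BM-shPrmt9, and in spleen 80 (189 CPM) in Ctrl and 86 (102 CPM) in shPrmt9. BM-shPrmt9 was the highest and BM-Ctrl the lowest, and the ratio in bone marrow was 35.9 (19.997–70.9). In spleen it was 0.538 (0.392–0.739), but 56 of the 80 UMIs of Spleen-Ctrl lay in 1 cell of 15509 UMIs. With the highest cell of each library left out, the spleen ratio was 1.66 and so turned direction.

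Cd70 had 2 UMIs (1.44 CPM), 54 (101 CPM), 27 (63.9 CPM) and 9 (10.7 CPM) in the same order. Its ratio was 70.5 (18.6–597) in bone marrow, resting on 2 UMIs in the control, and 0.167 (0.0690–0.365) in spleen. The same Spleen-Ctrl cell held 20 of the 27 UMIs there, and without the highest cells the spleen ratio was 0.352. That cell also carried 18 UMIs of Cd86 and 10 of Cd80.

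Icosl had 24 UMIs (17.2 CPM), 70 (131 CPM), 12 (28.4 CPM) and 19 (22.5 CPM). Only BM-shPrmt9 was high, and BM-Ctrl and both spleen libraries had overlapping intervals. In bone marrow its ratio was 7.61 (4.73–12.7), in spleen 0.793 (0.365–1.79). In Icosl BM-shPrmt9 thus stood above both spleen libraries, whereas in Cd80 it stood below them.

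**Figure D2:**
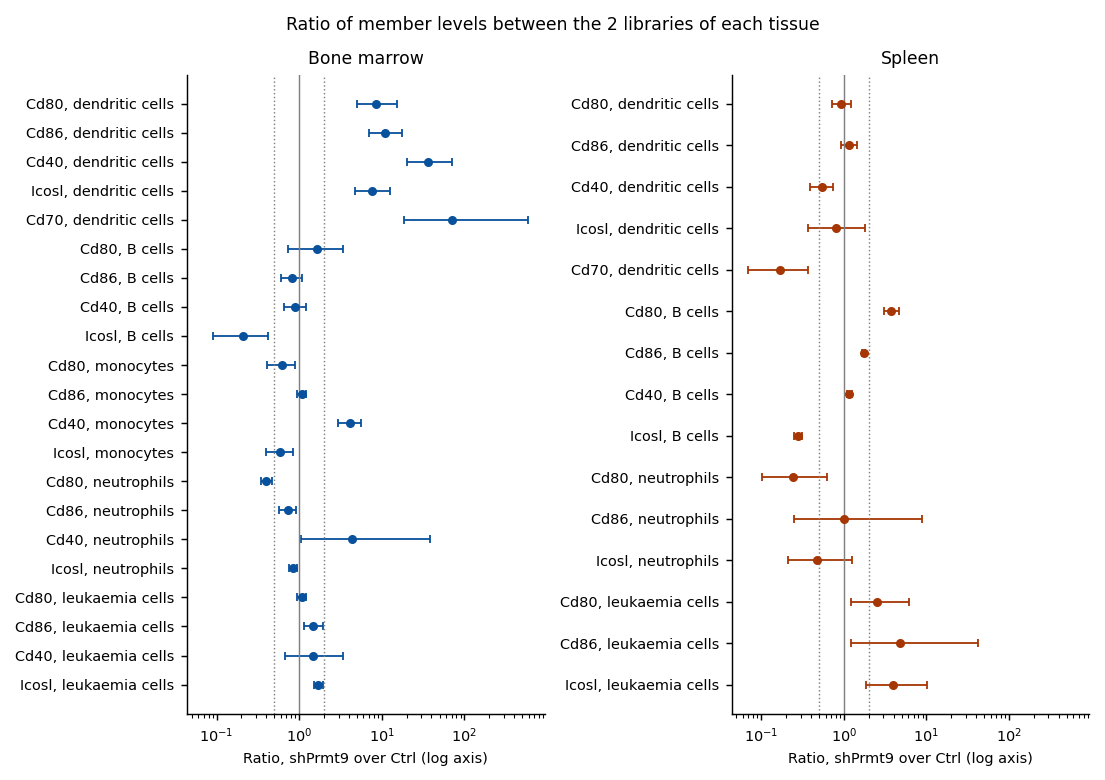
Ratio of CPM between shPrmt9 and Ctrl (log axis) for each member and class with at least 20 UMIs over both libraries and at least 20 cells in each. Macrophages and the monocytes of spleen are therefore not drawn. Intervals are exact conditional intervals, and dotted lines stand at 2-fold. In bone marrow the 5 dendritic cell ratios, from 7.61 to 70.5, lie right of the 2-fold line, and in spleen they run from 0.167 to 1.15.

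The makeup of the dendritic gate moved with these values. Plasmacytoid cells, which are specialised in interferon release and are gated here on genes such as Siglech, were 120 of 130 dendritic cells (92.3%) in BM-Ctrl, 17 (40.5%) in BM-shPrmt9, 3 (11.5%) in Spleen-Ctrl and 0 in Spleen-shPrmt9. Migratory cells, gated on at least 3 of Ccr7, Fscn1, Ccl22, Cacnb3 and Tmem123, were 6 (4.62%), 24 (57.1%), 21 (80.8%) and 44 (91.7%). Conventional cells numbered 4, 1, 2 and 4. Because BM-Ctrl held 6 migratory cells, the ratios within this subset rest on few control UMIs.

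Within migratory cells Cd80 had overlapping intervals in all libraries, with 8 UMIs (157 CPM) in BM-Ctrl and 55 (170.2 CPM) in BM-shPrmt9, and in spleen 98 (269 CPM) in Ctrl and 182 (237 CPM) in shPrmt9. The bone marrow ratio of Cd80 was 1.09 (0.514–2.64), against 8.55 over all dendritic cells. Cd86 stood at 97.9 CPM (5 UMIs), 325 (105), 296 (108) and 340.0 (261), and its bone marrow ratio was 3.32 (1.38–10.4). Cd40 stood at 118 CPM (6 UMIs), 473 (153), 219 (80) and 112 (86), a bone marrow ratio of 4.03 (1.81–11.1). These 3 members therefore had smaller ratios in the migratory subset than in the whole gate, and for Cd80 the interval included 1.

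Icosl and Cd70 in migratory cells each had 1 UMI in BM-Ctrl and 54 in BM-shPrmt9 (19.6 and 167 CPM), a ratio of 8.53 (1.47–343). In spleen Icosl stood at 27.4 CPM in Ctrl and 24.8 in shPrmt9, and Cd70 at 74.0 and 11.7. Plasmacytoid cells could be compared in bone marrow only. There Icosl rested on 18 UMIs (13.9 CPM) in Ctrl and 16 (78.3 CPM) in shPrmt9, a ratio of 5.65 (2.69–11.7). In migratory cells of bone marrow every member passed the minimum only through BM-shPrmt9. The shared direction of Icosl in both subsets therefore gives no support. Cd40, with 4 and 12 UMIs, Cd86, with 10 and 4, and Cd80, with 4 and 4, were under the minimum of 20 in plasmacytoid cells and their ratios were not read. How far the subset makeup sets the ratios of the whole gate was not tested beyond these values.

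**Figure D3:**
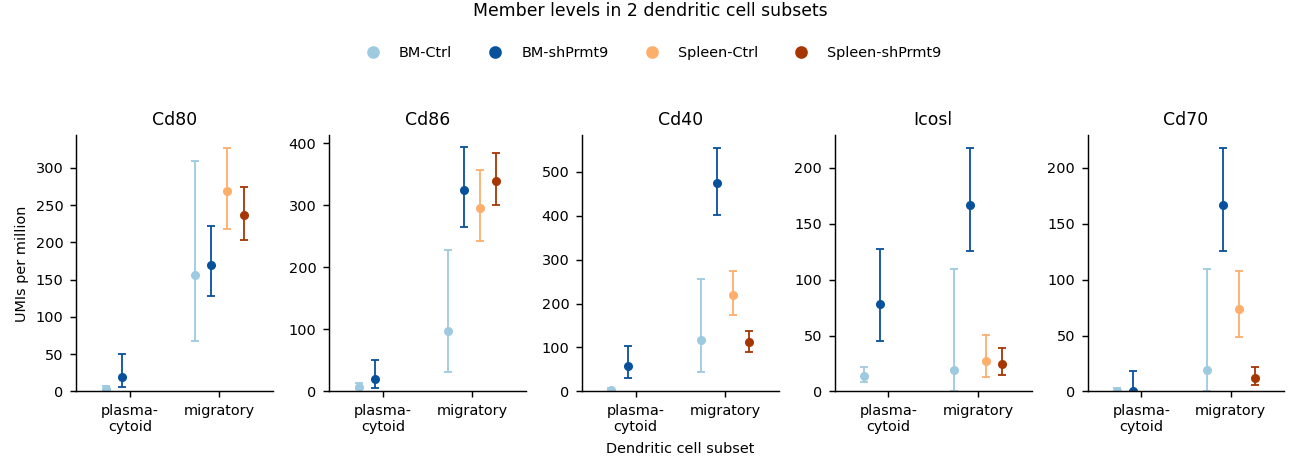
CPM (y axis) of the 5 genes in plasmacytoid and migratory dendritic cells (x axis), with 1 point per library and exact Poisson intervals. Cd80 in migratory cells lies between 157 and 269 in all libraries, whereas Icosl is high in BM-shPrmt9 alone, and the spleen libraries, with 3 and 0 plasmacytoid cells, are not drawn for that subset.

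The members were found together in single cells. Cd80 and Cd86 were both detected in 2 of 6, 15 of 24, 14 of 21 and 31 of 44 migratory cells. At least 3 of the 5 members were detected in 3, 19, 12 and 26 of these cells. All 13 dendritic cells with Cd70 in BM-shPrmt9 were migratory. In plasmacytoid cells of BM-Ctrl 98 of 120 had none of the 5.

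Signs of other cells moved with the dendritic cells. The summed level of 8 T cell markers in the dendritic gate was 26.6, 0, 192 and 538 CPM, with 7, 0, 8 and 8 of the 8 detected. The summed level of 9 B cell markers was 671, 356, 580 and 1561 CPM, and that of 10 erythroid markers 535, 905, 256 and 2037 CPM. The 11 neutrophil markers summed to 2497, 4669, 428 and 486 CPM. In bone marrow the T and B cell markers were lower and the neutrophil and erythroid markers higher in the library with the higher member levels. Their part in the dendritic values was not tested.

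Other genes of the pathway were also higher over the whole dendritic gate of BM-shPrmt9, where 8.37% of 7896 genes were higher and 15.7% lower. This gate held 92.3% plasmacytoid cells in BM-Ctrl and 57.1% migratory cells in BM-shPrmt9. The lists were not read within these subsets, and the part of the makeup in their values was not tested. Of 14 adaptors of Cd40 and members of the NF-kB pathway, 8 were higher and 0 lower, with a median log2 ratio of 1.15 where the median of all genes was −0.20. Traf1, an adaptor of TNF receptors, stood at 79.0 CPM in Ctrl and 845 in shPrmt9, a ratio of 10.7 (8.67–13.3). Relb, an NF-kB subunit, had a ratio of 6.93 (5.39–8.97) and Nfkbia, which encodes an NF-kB inhibitor, of 5.63 (5.01–6.33). Tnfaip3, another NF-kB inhibitor, had 15 and 60 UMIs, a ratio of 10.4 (5.85–19.8). It passed the minimum only through BM-shPrmt9, so the count of 8 gives no support by itself.

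Of 12 genes of dendritic cell maturation, 11 were higher and 1, Ccl17, was lower, with a median log2 ratio of 3.11. Among them Ccr7, Fscn1, Ccl22, Cacnb3 and Tmem123 were also markers of the migratory gate, and of the other 7 genes 6 were higher and 1 was lower. Il12b, a cytokine subunit that drives T helper responses, had 12 and 125 UMIs, a ratio of 27.2 (15.02–54.0). It passed the minimum only through BM-shPrmt9, so the count of 11 gives no support by itself. The maturation marker Cd83 had a ratio of 11.8 (8.27–17.3), Marcksl1 of 11.01 (9.12–13.4) and the actin-bundling Fscn1 of 16.9 (13.4–21.6).

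Of 8 other TNF family ligands 2 had enough UMIs, both only through the library where they were higher. Tnfsf9, the ligand of 4-1BB, had 8 and 66 UMIs, a ratio of 21.5 (10.3–51.9), and Tnfsf4, the ligand of OX40, had 1 and 26 UMIs, a ratio of 67.8 (11.1–2782). Of 6 other B7 family genes 2 could be read. Cd274, which encodes the inhibitory ligand PD-L1, had 19 and 52 UMIs (13.6 and 97.4 CPM), a ratio of 7.14 (4.15–12.8). Vsir, another inhibitory member, had 57 and 6 UMIs (40.9 and 11.2 CPM), a ratio of 0.275 (0.0968–0.636). Each passed the minimum of 20 UMIs only through the library where it was higher. March1, a ubiquitin ligase known to take Cd86 off the surface, had 20 UMIs in BM-Ctrl and 0 in BM-shPrmt9, and was at least 2.55-fold lower with the 0 set to 3 UMIs. It just reached the minimum of 20, only through BM-Ctrl, so this call gives no support. Of the 9 transcription and turnover genes read in all, 2 were higher and 1 was lower, and Irf4 had a ratio of 3.04 (1.31–7.21). Among 3 adhesion genes 1 was higher, Icam1 with a ratio of 3.27 (2.44–4.38), and 0 of 2 T cell receptors of these ligands were past 2-fold.

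In spleen these lists moved less in dendritic cells. Of the 14 Cd40 adaptor and NF-kB genes 2 were higher and 0 lower, and of 10 maturation genes 1 was higher and 1 lower, with median log2 ratios of 0.13 and 0.12 beside 0.13 for all genes. Of 3 TNF ligands 1 was higher and 1 lower (Tnfsf9, 11 and 10 UMIs, ratio 0.455, 0.173–1.18). The higher one, Tnfsf8, had 7 and 60 UMIs (16.6 and 71.1 CPM) and passed the minimum only through Spleen-shPrmt9. Of 8 transcription and turnover genes 1 was higher (Batf, 1 and 19 UMIs, ratio 9.51, 1.51–395), of 3 adhesion genes 1 was lower (Cd48, ratio 0.474, 0.235–0.955) and 0 of 3 other B7 genes were past 2-fold. The 3 receptors read passed the minimum only through Spleen-shPrmt9, Cd28 with 0 and 22 UMIs (at least 3.67-fold higher, with the 0 set to 3 UMIs), Icos with 6 and 58 and Cd27 with 6 and 29, in the library where the T cell markers were higher as well.

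B cells held most of the Cd86 and Cd40 UMIs of spleen, 86.9% and 87.2% in Ctrl and 60.1% and 54.7% in shPrmt9. The gate found 1138, 103, 5647 and 1338 cells, with median depths of 4746, 8811, 6361 and 15323 UMIs. In bone marrow 0 of 4 members were higher and 1 was lower, beside 4.07% and 6.76% of 10199 genes. In spleen 1 of 4 was higher and 1 lower, beside 4.34% and 11.9% of 12949 genes. Cd70 had 1, 1, 6 and 0 UMIs and was not compared. With trimmed-mean (TMM) scaling 746 genes were higher and 1190.0 lower in spleen B cells, instead of 562 and 1544.

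Markers of other cells moved in the same gate. The 9 B cell markers summed to 12018, 11104, 11056 and 7890 CPM, the 11 neutrophil markers to 1596, 3866, 129 and 439 CPM and the 10 erythroid markers to 892, 802 and 312 CPM in the first 3 libraries and 1941 in Spleen-shPrmt9. Their part in the B cell values was not tested.

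Icosl was the member that was lower in B cells of both shPrmt9 libraries. It had 207 UMIs (32.8 CPM) in BM-Ctrl and 8 (6.90 CPM) in BM-shPrmt9, and in spleen 2275 (48.3 CPM) in Ctrl and 356 (13.6 CPM) in shPrmt9. Both Ctrl libraries were above both shPrmt9 libraries, with no overlap of intervals. In bone marrow Icosl passed the minimum of 20 UMIs only through BM-Ctrl, so the shared direction and the marrow count of 1 give no support. Its marrow ratio was 0.210 (0.0896–0.422), its spleen ratio 0.281 (0.251–0.314). An Icosl UMI was found in 14.8, 5.83, 30.3 and 19.6% of B cells, and in 7.04, 0.980, 10.7 and 4.62% of cells thinned to 2000 UMIs, with 16, 1, 50 and 18 shallower cells left out. Erythroid cells had one in 0.322, 0.723, 2.55 and 0.362% of cells unthinned.

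Cd80 had 33 UMIs (5.23 CPM), 10 (8.62 CPM), 140 (2.97 CPM) and 294 (11.2 CPM). Spleen-shPrmt9 was above Spleen-Ctrl, with a ratio of 3.77 (3.07–4.65), and the bone marrow ratio was 1.65 (0.725–3.43). Cd86 had 355 UMIs (56.2 CPM), 53 (45.7 CPM), 3866 (82.0 CPM) and 3755 (143 CPM). Its ratio was 1.74 (1.67–1.83) in spleen, short of 2-fold, and 0.813 (0.597–1.09) in bone marrow. A Cd86 UMI was found in 18.7, 32.0, 38.1 and 76.8% of B cells, and in 8.82, 8.82, 14.2 and 24.7% after thinning, beside 12.2% of the T cells of Spleen-shPrmt9 before it and 3.30% after. Cd40 stood at 51.8, 46.6, 43.8 and 50.8 CPM, with ratios of 0.899 (0.661–1.20) and 1.16 (1.08–1.25).

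The B cells of the libraries lay in different clusters. The clusters were drawn without the 5 genes and without the pathway genes that were not class markers, and their shares of a library are a description. Cluster 0, led by Ighd, held 116, 7, 4500 and 16 of the B cells, or 10.2, 6.80, 79.7 and 1.20%. Cluster 5, led by Bcl2a1d and Cldnd1, held 13.8, 11.7, 14.5 and 41.1%, and cluster 12, led by Apoe and Iglc2, held 5.89, 33.0, 4.99 and 54.4%. Cluster 21, led by the precursor genes Vpreb3 and Vpreb1, held 30.9, 40.8, 0.213 and 0.224%. Cluster 23, led by Sfn, held 408 cells of BM-Ctrl (35.9%) and 0 of BM-shPrmt9, and 131 of the 207 Icosl UMIs of marrow Ctrl B cells lay in it (69.9 CPM).

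Within clusters 0, 5 and 12 the spleen libraries differed less in Icosl. In cluster 0, the one of these 3 with the highest Icosl, it stood at 63.3 CPM in Ctrl and 77.2 (7 UMIs) in shPrmt9, a ratio of 1.22 (0.489–2.52). In cluster 12 it stood at 17.8 and 22.4 CPM, a ratio of 1.26 (0.934–1.71). In cluster 5 it stood at 18.8 and 8.02 CPM, a ratio of 0.427 (0.342–0.530). Cluster 5 thus kept a lower Icosl level in the shPrmt9 library, and clusters 0 and 12 had intervals that included 1.

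Cd86 was higher in Spleen-shPrmt9 in each of these clusters. The ratio was 2.86 (1.69–4.53) in cluster 0, with 18 UMIs in shPrmt9, 1.30 (1.21–1.39) in cluster 5 and 1.77 (1.54–2.04) in cluster 12. Cd80 was higher in cluster 5, at 4.32 and 13.2 CPM, a ratio of 3.05 (2.26–4.19). In cluster 12 Cd80 stood at 11.6 and 7.75 CPM, a ratio of 0.669 (0.445–1.02) with an interval that included 1. Cd40 had ratios of 0.957 (0.873–1.05) in cluster 5 and 1.35 (1.02–1.81) in cluster 12. Without cluster 0 the spleen ratios of all B cells were 1.68 for Cd80, 1.34 for Cd86, 0.884 for Cd40 and 0.690 for Icosl.

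In bone marrow clusters 21 and 12 held over 30 B cells of both libraries, 352 and 42 in cluster 21 and 67 and 34 in cluster 12. Cd86 in cluster 21 had 18 UMIs (10.8 CPM) in Ctrl and 10 (34.0 CPM) in shPrmt9, a ratio of 3.13 (1.29–7.16). Cd40 had 77 (46.4 CPM) and 28 (95.2 CPM), a ratio of 2.05 (1.28–3.20). In cluster 12 both ratios were below 1. Cd40 had 20 UMIs (42.4 CPM) and 4 (9.26 CPM) there, a ratio of 0.219 (0.0543–0.652), and Cd86 had 42 (89.0 CPM) and 23 (53.3 CPM), a ratio of 0.598 (0.343–1.02) with an interval that included 1. Over all marrow B cells neither gene was past 2-fold. Icosl had 8 and 2 UMIs in cluster 21 and 5 and 2 in cluster 12, and was not read.

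**Figure D4:**
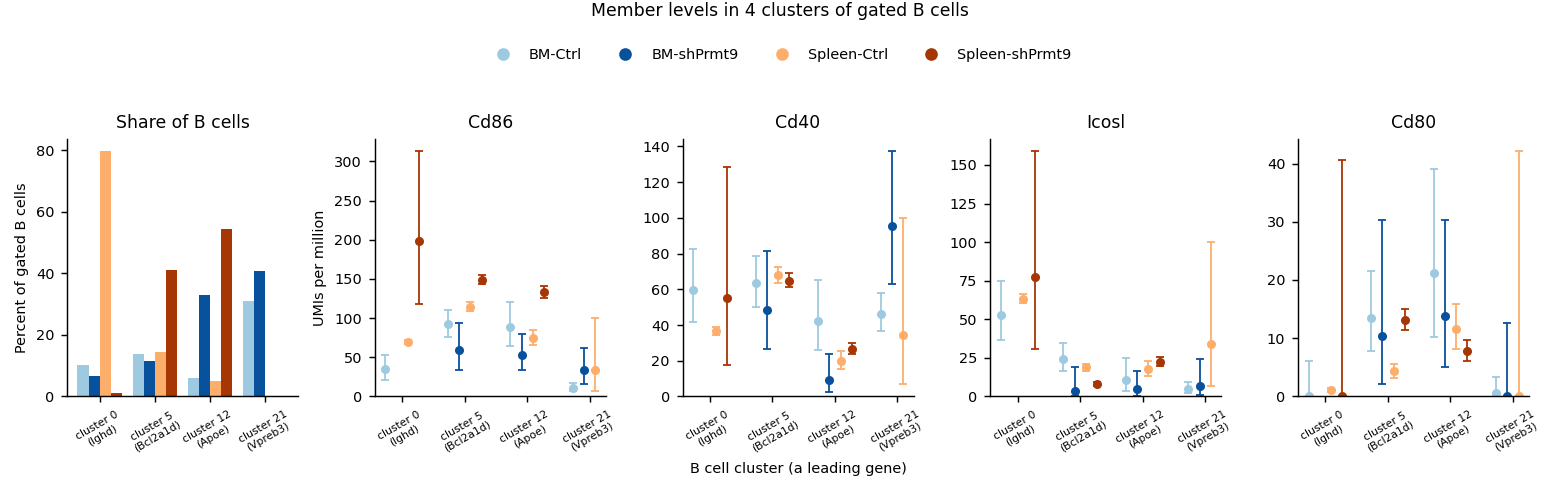
Percent of gated B cells in 4 clusters (left panel, bars from 0) and CPM of 4 members in the same clusters (other panels, y axes, exact Poisson intervals), by library. Cluster 0 holds 79.7% of Spleen-Ctrl and 1.20% of Spleen-shPrmt9 B cells and has the highest Icosl of the 4, and groups of under 10 cells are not drawn.

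Of the pathway lists in spleen B cells, 3 of 4 TNF ligands were higher and 0 lower, although all 3 were under 4 CPM. Tnfsf15 had 1 and 31 UMIs, a ratio of 55.7 (9.28–2270), and Tnfsf4 had 16 and 47, a ratio of 5.28 (2.94–9.97). Both passed the minimum through shPrmt9 alone. Tnfsf8 had a ratio of 2.62 (1.85–3.73). Pdcd1lg2, which encodes the inhibitory ligand PD-L2, was the 1 of 4 B7 genes past 2-fold, at 10.1 and 2.44 CPM, a ratio of 0.242 (0.183–0.315). Of 10 transcription and turnover genes 1 was higher and 2 were lower. Ciita, the switch for MHC class II genes, had a ratio of 0.269 (0.248–0.290) and March1 of 0.174 (0.157–0.192), the latter at 96.9 and 16.8 CPM. Of 11 maturation genes 0 were higher and 2 lower, Cd83 among them at 127 and 55.1 CPM, a ratio of 0.433 (0.409–0.459). Of 14 Cd40 adaptor and NF-kB genes 0 were higher and 1 was lower, 1 of 4 receptors was higher (Cd28, 0.700 and 1.98 CPM) and 0 of 4 adhesion genes were past 2-fold. The medians ran from −0.75 to 1.89 on the log2 scale beside −0.19 for all genes.

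In marrow B cells the same lists had few calls. Pdcd1lg2 was lower, with 67 and 5 UMIs and a ratio of 0.406 (0.128–0.996), as was March1, with a ratio of 0.446 (0.309–0.628). Tnfsf8 was the 1 of 2 TNF ligands that was lower, with 27 and 2 UMIs and a ratio of 0.403 (0.0465–1.605). Pdcd1lg2 and Tnfsf8 passed the minimum only through BM-Ctrl. Of 9 maturation genes 2 were higher, of 2 receptors 1 was higher (Ctla4, 12 and 12 UMIs from unequal totals), and 0 of 14 Cd40 adaptor and NF-kB genes and 0 of 4 adhesion genes were past 2-fold.

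Among the myeloid cells, monocytes differed in Cd40. The gate found 477, 233, 5 and 68 monocytes. In bone marrow 1 of 4 members was higher and 0 lower, beside 7.41% and 8.7% of 10611 genes. Cd40 had 59 UMIs (8.31 CPM) and 144 (33.9 CPM) there, a ratio of 4.08 (2.99–5.62). In spleen it had 4 (78.0 CPM) and 25 (26.7 CPM), a ratio of 0.342 (0.118–1.35). The spleen ratio rests on 5 control cells, and its interval includes 1.

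Cd86 in monocytes stood at 80.2 CPM (569 UMIs), 85.9 (365), 117 (6) and 240.3 (225). Its marrow ratio was 1.07 (0.937–1.22) and its spleen ratio 2.05 (0.929–5.65). Cd80 had 103 and 38 UMIs in bone marrow, a ratio of 0.616 (0.413–0.902), and Icosl 118 and 41, a ratio of 0.580 (0.396–0.834). Both were lower in BM-shPrmt9 without reaching 2-fold, and Cd70 had 0 UMIs in monocytes of every library. In cluster 15 alone, without 92 and 12 gated monocytes of BM-Ctrl and BM-shPrmt9 from cluster 18, which was led by basophil and mast cell genes, Cd40 had a ratio of 3.24 (2.32–4.57), Cd86 of 0.968 (0.839–1.12) and Cd80 of 0.491 (0.328–0.725). The summed level of the 11 neutrophil markers in the monocyte gate was 5051 CPM in BM-Ctrl and 9342 in BM-shPrmt9, and its part in the monocyte values was not tested.

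Macrophages were few, with 13, 17, 2 and 13 cells, and they were not well parted from monocytes. Cluster 15 held 42 gated macrophages beside 674 gated monocytes. In the macrophage gate the 8 monocyte markers summed to 6682, 5545, 189 and 4541 CPM and the 11 macrophage markers to 1135, 1018, 1888 and 2503. The 11 neutrophil markers summed to 1756 CPM in BM-Ctrl and 6318 in BM-shPrmt9. Their part in the macrophage values was not tested. Cd86 had 37 UMIs (152 CPM), 43 (132 CPM), 1 (62.9 CPM) and 53 (379 CPM), and its marrow ratio was 0.866 (0.545–1.38). Cd40 had 3 UMIs (12.3 CPM), 21 (64.4 CPM), 0 and 11 (78.7 CPM), a marrow ratio of 5.22 (1.56–27.3). Cd40 was also above Ctrl in monocytes and dendritic cells of BM-shPrmt9. In macrophages and dendritic cells it passed the minimum of 20 UMIs only through that library, so the shared direction gives no support. Cd80 had 3, 6, 0 and 4 UMIs, Icosl 2, 0, 0 and 0, and Cd70 0 in all.

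Neutrophils, which are not classical presenting cells, carried Cd80 and Icosl. There were 3836, 5614, 29 and 190 of them. In bone marrow 1 of 4 members was higher and 1 lower, beside 3.91% and 5.1% of 11625 genes. In spleen 0 of 3 were higher and 2 lower, beside 10.1% and 11.8% of 6394 genes. The split of calls over all genes moved with scaling. With TMM, 668 genes were higher and 279 lower in marrow neutrophils, instead of 454 and 593, and 1172 higher and 391 lower in spleen, instead of 645 and 752.

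Cd80 had 378 UMIs (18.2 CPM) in BM-Ctrl and 334 (7.34 CPM) in BM-shPrmt9, and in spleen 8 (34.7 CPM) in Ctrl and 23 (8.32 CPM) in shPrmt9. It was lower in the shPrmt9 library of both tissues, with ratios of 0.402 (0.346–0.467) and 0.240 (0.103–0.620). The marrow ratio was 0.490 with TMM. Icosl had 592 (28.6 CPM), 1093 (24.004 CPM), 7 (30.4 CPM) and 40 (14.5 CPM), and ratios of 0.841 (0.760–0.931) and 0.476 (0.211–1.26). Cd86 stood at 5.74, 4.17, 8.68 and 8.68 CPM. Cd40 had 2, 19, 0 and 5 UMIs, a marrow ratio of 4.33 (1.04–38.3), with 9 of the 19 in 1 cell. Its marrow levels of 0.0965 and 0.417 CPM lay within the erythroid range pooled over the libraries, although erythroid cells of BM-Ctrl held 0 Cd40 UMIs.

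The neutrophils were split by the share of their UMIs in Ngp, Ltf, Camp and Lcn2, granule genes of immature neutrophils, at 5%. The granule-low cells, which were 80.6% of BM-Ctrl and 71.8% of BM-shPrmt9 neutrophils, held more of both members. Cd80 in granule-low cells stood at 27.4 and 11.2 CPM, a ratio of 0.408 (0.347–0.479). In granule-high cells it stood at 3.96 and 2.75 CPM, a ratio of 0.696 (0.444–1.11). Icosl stood at 39.7 and 31.2 CPM in granule-low and at 11.1 and 15.4 in granule-high cells, ratios of 0.786 (0.702–0.881) and 1.38 (1.09–1.76), so its direction differed between them. The lower Cd80 was present in the granule-low cells of bone marrow taken alone.

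Leukaemia cells, gated on at least 3 of 9 genes such as Hoxa9, Hoxa10 and Meis1, numbered 1610, 1976, 47 and 213. In bone marrow 0 of 4 members were past 2-fold in either direction, beside 13.4% of 14207 genes higher and 7.21% lower. In spleen 3 members were read and were higher, beside 12.3% of 9308 genes higher and 16% lower. Each passed the minimum only through Spleen-shPrmt9, so their count gives no support. With TMM, 1484 genes were higher and 1136 lower in spleen, instead of 1145 and 1488. Cd70 had 0 UMIs in BM-Ctrl, where 3 UMIs would be 0.0313 CPM, and 3, 0 and 0 in the others.

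Cd80 had 447 UMIs (4.67 CPM), 514 (5.03 CPM), 8 (4.73 CPM) and 65 (11.9 CPM) in leukaemia cells. Its marrow ratio was 1.08 (0.947–1.22) and its spleen ratio 2.52 (1.21–6.09). Icosl had 361 (3.77 CPM), 655 (6.41 CPM), 7 (4.14 CPM) and 89 (16.3 CPM), ratios of 1.70 (1.49–1.94) and 3.95 (1.84–10.1). Cd86 had 97, 154, 2 and 31 UMIs, a spleen ratio of 4.81 (1.22–41.5) that rests on 2 control UMIs. Spleen-shPrmt9 was the highest library for all 3, with Cd86 between the levels of erythroid and T cells there.

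Neutrophil and erythroid markers moved with these values. The summed level of the 11 neutrophil markers in leukaemia cells was 7379, 34670 CPM in bone marrow and 84602, 184241 CPM in spleen, Ctrl before shPrmt9. That of the 10 erythroid markers was 293 and 750.2 CPM in bone marrow and 183 and 2045 CPM in spleen. Cells with at least 10% of their UMIs in the 11 neutrophil markers were 3.91, 21.3, 31.9 and 77.5% of leukaemia cells. The erythroid markers were not part of this split. In the remaining, marker-low cells Icosl had a marrow ratio of 1.54 (1.34–1.77), at 3.78 and 5.82 CPM, and Cd80 one of 1.01 (0.882–1.16). In spleen the marker-low cells numbered 32 and 48, and their ratios were 4.10 (1.53–13.7) for Icosl and 6.19 (2.17–24.2) for Cd80. In bone marrow the Icosl ratio was 1.70 over all leukaemia cells and 1.54 in marker-low cells, both short of 2-fold. Marker-low cells could still hold neutrophil-marker UMIs below the 10% limit. The part of the neutrophil and erythroid markers in these values was not tested. Of the 31 Cd86 UMIs of Spleen-shPrmt9, 27 lay in marker-high cells, and the marker-low cells had 2 and 4, too few to be read.

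**Figure D5:**
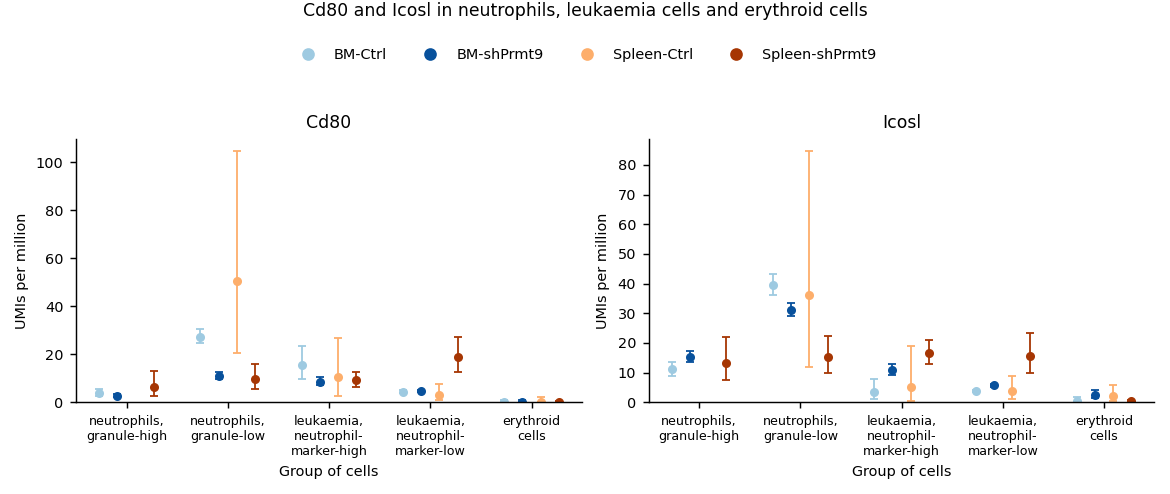
CPM (y axes) of Cd80 (left) and Icosl (right) in neutrophils and leukaemia cells split by granule or neutrophil markers, and in erythroid cells, with 1 point per library and exact Poisson intervals. Cd80 of granule-low neutrophils is 27.4 in BM-Ctrl and 11.2 in BM-shPrmt9, erythroid cells lie near 0, and the 6 granule-high neutrophils of Spleen-Ctrl are not drawn.

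On the T cell side, the ligand of Cd40 was read in T cells of spleen. Cd40lg had 204 UMIs (12.7 CPM) in Ctrl and 150 (6.00 CPM) in shPrmt9, a ratio of 0.473 (0.381–0.587). This gene was named after its values were seen.

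For each member the genes with the most similar levels over the 24 class-by-library values were found by Pearson's r of log2(CPM + 1), among 13511 genes. The values of 1 library share their depth and free RNA, so r is a description. The genes nearest to Cd80 were Rnf24 (r = 0.890), Mmd (0.887) and Smurf1 (0.887), and those nearest to Cd86 were Mdfic (0.947), AW112010 (0.921) and Irf5 (0.901), the last a transcription factor of inflammatory myeloid cells. Cd40 was nearest to Ppfibp2 (0.940) and Fam49a (0.928), and Icosl was nearest to Crebl2 (0.817), Kdm4b (0.811) and Eif4ebp3 (0.811). Cd70, with 107 UMIs in these classes, was nearest to Arhgef40 (0.964), Scin (0.957) and Arhgap22 (0.952).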

How the data were processed

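Single-cell 3′ libraries of bone marrow and spleen cells (10x Genomics) were analysed as deposited. The authors deposited raw UMI counts per gene and barcode, made with Cell Ranger against mm10. The submitters' notes give version 6.1.1 and the file headers 6.0.2. A minimum of 200 genes and a maximum of 20% mitochondrial UMIs were set for a cell. Doublets were scored with Scrublet in scanpy 1.11.5. Its own threshold called 125, 0, 1 and 183 cells and had not worked in 2 libraries, so cells were left out by score instead, from the top down to an expected 0.8% per 1000 cells (744, 999, 640 and 520).

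The members and gene lists were chosen with earlier results of these data known. Cells were gated by the number and summed CPM of class markers, and barcodes outside these classes and the T and erythroid gates (820, 929, 482 and 1443) stayed ungated, among them barcodes with several lineages and types with no gate, such as NK cells and basophils. The marker lists were set from textbook knowledge. How they were combined, the thresholds and the splits of neutrophils and leukaemia cells were set after marker levels per cluster had been seen, when member levels per cluster had been seen too, and 2 gate rules were tried. Leiden clusters (30) came from 2964 variable genes, at resolution 1 with 50 components and 15 neighbours. The members and the pathway genes that were not class markers were left out. Names are rebuilt from markers, so a difference from the study's own cell types can come from them.

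Counts were summed per class and library and divided by the class total (CPM). Levels have exact Poisson, shares Clopper-Pearson and ratios conditional exact intervals. A ratio was read where both libraries of a tissue together had at least 20 UMIs, and a library at 0 was set to 3 UMIs. Depth limits the small classes most: 1 UMI is worth 19.5 CPM in the 5 monocytes of Spleen-Ctrl and 0.0212 CPM in its B cells. Named genes were the 5 members, up to 4 genes a list past 2-fold in dendritic or B cells by size of the ratio, and the 3 genes most similar to each member, of which 1 is not reported here. The ratio code was tested on simulated data. Alternatives covered scaling (TMM, edgeR 4.0.16 in R 4.3.3), doublets, the mitochondrial limit (10%), the gate, cluster-based classes, averaging, the highest cell, shared barcodes and depth. Python 3.11.15, scipy 1.17.1, numpy 2.4.6, pandas 2.3.3 and matplotlib 3.10.9 were used.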

Additional observations from a re-analysis of the deposited data

Results flagged for a closer look

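Cd70 in dendritic cells was higher in shPrmt9 than in Ctrl in bone marrow, with a ratio of 70.5, and lower in spleen, with a ratio of 0.167. The marrow value rests on 2 control UMIs, and 20 of the 27 UMIs of Spleen-Ctrl lay in 1 cell. Cd40 in monocytes had ratios of 4.08 in bone marrow and 0.342 (0.118–1.35) in spleen, the latter from 4 UMIs in 5 control cells and with an interval that includes 1. With 1 library a group the difference between the tissues was not tested for either gene.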

How the results depend on the processing

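Of 357 values that other settings gave for 40 ratios, 336 moved by less than their counting interval, 21 moved beyond it, and 0 of the ratios past 2-fold turned direction. No paired analysis was possible because the labels give 1 library a group, and for the same reason no replicate could be left out. For the ratios of dendritic and B cells and of Cd86 in monocytes, the following moved, and the cause was not tested. The stricter gate gave 19.0 for Cd80 in marrow dendritic cells. Classes from clusters gave 3.84 and 1.65 for Cd86 in marrow and spleen dendritic cells, 0.859 for Cd40 in spleen dendritic cells and, in spleen B cells, 1.66 for Cd86, 1.35 for Cd40 and 0.217 for Icosl. The mean over cells gave 1.55 for Cd86 in spleen dendritic cells, and 2.05 for Cd86 and 0.391 for Icosl in spleen B cells. TMM scaling gave 1.93 for Cd86 and 1.29 for Cd40 in spleen B cells, and leaving out the highest cell gave 1.66 for Cd40 in spleen dendritic cells. The following subsets were chosen after seeing the data. In migratory cells of bone marrow the ratios were 1.09 for Cd80, 3.32 for Cd86 and 4.03 for Cd40. In spleen B cells, cluster 5 alone gave 1.30 for Cd86, 0.957 for Cd40 and 0.427 for Icosl, and without cluster 0 they were 1.34, 0.884 and 0.690. Cluster 12 alone gave 0.669 (0.445–1.02) for Cd80 and 1.26 (0.934–1.71) for Icosl, on the other side of 1 but with intervals that included 1. It gave 1.35 for Cd40. In marrow B cells it gave 0.219 for Cd40 and, from 5 and 2 UMIs and thus under the minimum of 20, 0.437 for Icosl. TMM factors raised log2 ratios by 0.13 in marrow dendritic cells, 0.15 in spleen B cells, 0.29 and 0.34 in marrow and spleen neutrophils and 0.18 in spleen leukaemia cells, and moved them by −0.04 to 0.04 elsewhere. They moved the genes past 2-fold by over 1.5 times in marrow neutrophils (593 lower to 279) and spleen neutrophils (645 higher to 1172, 752 lower to 391). With genes of at least 1 UMI, 11 of the 18 counts moved that far, and counts ran from 645 to 2768 instead of 369 to 1901.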

Other observations

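Part of the member UMIs lay outside the 6 classes. Ungated barcodes held 37.0% of all Cd40 UMIs of Spleen-shPrmt9 and 7.95% of those of Spleen-Ctrl, and 22.4% and 6.79% of those of Cd86. In BM-shPrmt9 1 T cell held 15 UMIs of Cd70, which were all of the Cd70 UMIs of the T cells of that library.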
